A study of Homo sapiens with 12 samples.

Results

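The 36 genes described here code for the machinery with which the endoplasmic reticulum (ER) folds, checks and ships secreted proteins. They were taken by gene symbol from a table of 58735 genes, and all 36 were found and had enough counts to be tested. RNA sequencing had been done on LX-2 cells, a human hepatic stellate cell line in which fibrosis of the liver is studied in culture, labelled wild type throughout. The 12 libraries form 4 groups of 3, labelled biological replicates: untreated cells (con), cells given TGF-β1, the cytokine that drives stellate cells towards matrix production, at 5 ng/ml for 24 h (TGFB), cells transfected with siRNA against NAT10, the enzyme that places N4-acetylcytidine on RNA (SiNAT10), and cells given that siRNA and, 48 h later, TGF-β1 at 5 ng/ml for 24 h (SiNAT10_TGFB). No label gives a group with a control siRNA, and none gives the harvest time of SiNAT10. Loss of NAT10, transfection itself and time thus cannot be told apart in any comparison of siRNA-treated with other cells. Nor can TGF-β1 and time since transfection be told apart in SiNAT10_TGFB against SiNAT10. The same holds for the difference between the TGF-β1 effects with and without siRNA, which rests on that comparison. Nor do the labels say that the 3 replicates of a group came from separate cultures, and the p-values then measure the spread between these libraries, which may be technical.

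Proteins bound for secretion enter the ER through the SEC61 channel, are folded by BiP (HSPA5) and GRP94 (HSP90B1) with their helpers and by the lectin chaperones calnexin and calreticulin, and leave in vesicles with a COPII coat. When unfolded protein builds up, the sensors IRE1 (ERN1), ATF6 and PERK start the unfolded protein response, in which the transcription factors XBP1, ATF6 and ATF4 raise the transcription of chaperones and of genes for ER-associated degradation (ERAD). Stellate cells that become myofibroblasts secrete large amounts of collagen, and procollagen needs this machinery, including the large-cargo receptor TANGO1 (MIA3) and the COPII subunit SEC24D.

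Each library held 25877008 to 35132582 counts, of which the 36 genes took 0.882 to 1.01%. NAT10 itself checked the labels: its level was 62.9 to 69.9 CPM (counts scaled to library size and, by TMM, to library composition) over the con libraries, 65.6 to 67.8 in TGFB, 17.9 to 19.5 in SiNAT10 and 15.8 to 20.7 in SiNAT10_TGFB. Of 12 stellate and mesenchymal markers, 7 or 8 had a group mean of at least 1 FPKM (fragments scaled by gene length and library size), but the quiescence marker LRAT was at 0 in all groups and DES at or under 0.0494. COL1A2 was at most 0.521, and ACTA2 at most 1.46. The same markers summed to 900 to 955 FPKM in con, 2317 to 2432 in TGFB, 610 to 654 in SiNAT10 and 948 to 1014 in SiNAT10_TGFB. Their sum thus moved with the groups, but single markers did not all follow it. From con to SiNAT10, SPARC (167 to 278) and ACTA2 (1.10 to 1.46) rose, LRAT stayed at 0, and the others fell. From con to TGFB, RGS5 (0.184 to 0.0975) and DES fell, LRAT stayed at 0, and the others rose. Defining hepatocyte, leukocyte and endothelial markers (ALB, TTR, PTPRC, CD3E, VWF) had group means at or under 0.09 FPKM. Of the other markers of such cells and of epithelium, the highest were SERPINA1 (2.88 to 5.28), CD14 (0.827 to 2.33), SOX9 (9.23 to 16.8) and KRT7 (0.538 in con, 1.03 in TGFB, 0.906 in SiNAT10 and 1.33 in SiNAT10_TGFB), and the rest had group means of at most 0.122. The part of these marker levels in the results below was not tested. No 2 libraries of a group were the same within sampling noise.

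The promoters are shown first because those of some of these genes carry known binding motifs of the unfolded protein response. RefSeq promoter sequences (GRCh38.p14, 250 bases before to 50 bases after each transcript start) were found for 31 of the 36 genes. The entries for SEC24D, DERL1, KDELR2, PDIA3 and DERL3 were missing. Both strands were searched for 3 motifs spelled without mismatches: the ER stress response element (ERSE, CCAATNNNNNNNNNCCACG), ERSE-II (ATTGGNCCACG) and the unfolded protein response element (UPRE, TGACGTGG). ERSE was present in 7 of the 31 genes (22.6%) and in 25 of all 27305 gene symbols with a RefSeq promoter (0.092%). ERSE-II was present in 3 of the 31 (9.7%) and in 19 of all symbols (0.07%). UPRE was present in 3 of the 31 (HYOU1, KDELR3 and SEC23A) and in 253 of all symbols (0.927%). The genes were picked for a pathway in which these motifs are known, so the shares are description and were not tested. A match describes the letters in this window and not a bound site.

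The 250 bases before the start are printed 5′ to 3′ on the gene's strand for 5 genes whose values carry the results below, with the fixed letters of each match in capitals. They hold 1 ERSE (HSPA5 and XBP1), 2 ERSE on opposite strands (HSP90B1), 1 ERSE-II (HERPUD1) and 2 ERSE-II with a UPRE that overlaps the upstream one (HYOU1).
HSPA5 (chr9:125241344-125241593, minus strand): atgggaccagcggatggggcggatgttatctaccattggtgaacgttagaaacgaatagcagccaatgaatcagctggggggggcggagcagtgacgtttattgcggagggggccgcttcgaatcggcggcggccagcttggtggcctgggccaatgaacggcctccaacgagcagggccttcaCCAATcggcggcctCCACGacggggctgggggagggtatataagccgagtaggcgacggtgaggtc
HSP90B1 (chr12:103930160-103930409, plus strand): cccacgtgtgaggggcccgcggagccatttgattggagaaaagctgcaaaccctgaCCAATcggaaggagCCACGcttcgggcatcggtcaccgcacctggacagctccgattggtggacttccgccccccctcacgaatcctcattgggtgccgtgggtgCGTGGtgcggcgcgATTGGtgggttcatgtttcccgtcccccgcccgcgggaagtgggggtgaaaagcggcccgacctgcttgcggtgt
HYOU1 (chr11:119057206-119057455, minus strand): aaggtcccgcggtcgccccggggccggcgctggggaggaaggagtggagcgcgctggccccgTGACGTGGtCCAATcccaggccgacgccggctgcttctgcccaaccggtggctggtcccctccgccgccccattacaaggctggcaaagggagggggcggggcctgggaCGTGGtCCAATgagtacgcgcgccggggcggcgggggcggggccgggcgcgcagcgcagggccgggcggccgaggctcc
HERPUD1 (chr16:56931892-56932141, plus strand): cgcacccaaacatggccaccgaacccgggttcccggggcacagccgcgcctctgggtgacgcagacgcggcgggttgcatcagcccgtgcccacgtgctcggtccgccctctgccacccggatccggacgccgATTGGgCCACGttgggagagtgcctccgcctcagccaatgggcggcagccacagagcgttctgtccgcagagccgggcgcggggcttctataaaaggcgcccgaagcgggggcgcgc
XBP1 (chr22:28800570-28800819, minus strand): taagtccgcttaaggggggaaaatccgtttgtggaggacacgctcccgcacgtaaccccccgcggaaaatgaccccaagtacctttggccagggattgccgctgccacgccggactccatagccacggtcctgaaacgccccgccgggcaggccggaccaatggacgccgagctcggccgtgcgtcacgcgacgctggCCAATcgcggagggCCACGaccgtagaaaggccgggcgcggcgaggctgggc
For the other genes with an ERSE or ERSE-II, the matched site itself is given on the strand on which it reads as spelled above, so that the constant ends and the variable spacer can be compared.
CALR, ERSE: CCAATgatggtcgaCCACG
CANX, ERSE: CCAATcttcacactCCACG
CRELD2, ERSE: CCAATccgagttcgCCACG
PDIA6, ERSE: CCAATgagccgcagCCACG
SDF2L1, ERSE-II: ATTGGtCCACG
In the map of motif positions, the ERSE of HSPA5 lay 66 to 48 bases before the start, that of XBP1 52 to 34 bases before it, and the ERSE-II of HERPUD1 117 to 107 bases before it. The variable bases between the fixed ends differed between all the ERSE sites shown, whereas the 2 ERSE-II sites of HYOU1 had the same 11 bases.

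**Figure D1:**
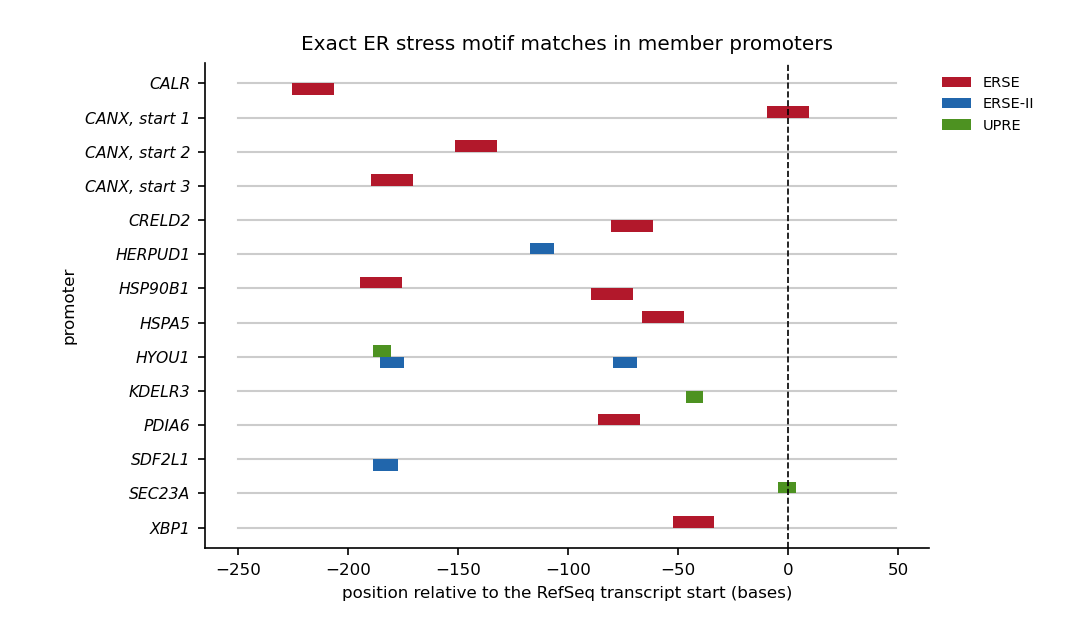
Exact matches to ERSE, ERSE-II and UPRE in the RefSeq promoters of the members that have any, by position relative to the transcript start (bases, x axis). Bars above a line are on the gene's strand and bars below it on the other. CANX is shown for 3 annotated starts that share a single site.

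TGF-β1 raised most of these genes in cells without siRNA and lowered none by the test. Of the 36, 22 were higher in TGFB than in con at an adjusted p under 0.05 (edgeR's quasi-likelihood test, Benjamini-Hochberg adjustment over 18560 genes), against 11.9% of all genes tested, and 0 were lower, against 12.2% (24.1% in either direction). None of the 36 was lower at an unadjusted p under 0.05 either, nor by DESeq2 or limma's voom. With library size as the only scaling, 3 were lower, beside 4623 of 18560 genes. With each library's trend with GC content removed, 1 was lower, CREB3L2 (-0.12, adjusted p = 0.0435), beside 2847 of 18552 genes. The median log2 fold change of the 36 was 0.26, beside -0.01 over all genes tested, and 32 of the 36 values were above 0 (49% of all genes). The 36 were chosen with earlier results of these data known, and the shares of all genes allow neither for that choice nor for count level. As the libraries are of whole cultures, a change in the mixture of cell states and a change in RNA per cell cannot be told apart. After siRNA, 14 of the 36 were higher in SiNAT10_TGFB than in SiNAT10 (5.92% of all genes) and 0 were lower (5.15%; 11.1% in either direction; 0 also at an unadjusted p under 0.05, by DESeq2 and by voom), with a median of 0.17 beside 0.00 over all genes. All 14 were also among the 22, in a comparison that shares no library with the first, and 4.61% of all genes were higher in both. The summed level of the 36 was 8860 ± 115 CPM in con, 10776 ± 143 in TGFB, 8648 ± 431 in SiNAT10 and 9716 ± 225 in SiNAT10_TGFB (SD, n = 3 each).

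The siRNA moved the genes in opposite directions. Without TGF-β1, 17 of the 36 were higher in SiNAT10 than in con (26.4% of all genes) and 9 were lower (26.4% of all genes; 52.8% in either direction). Under TGF-β1, 10 were higher in SiNAT10_TGFB than in TGFB (26.3% of all genes) and 14 lower (26.8% of all genes; 53.1% in either direction). The 9 called lower without TGF-β1 (25.0% of the 36) and the 10 called higher under it (27.8%) were near that background. The 2 comparisons share no library: 10 genes rose in both (27.8%, beside 20.5% of all genes) and 9 fell in both (25.0%, beside 21.1%), shares not far from those of all genes. A further 7 passed the test upward in the first comparison alone (19.4%, beside 5.67%), 5 passed it downward in the second comparison alone (13.9%, beside 5.4%), and 0 changed in opposite directions (0.388% of all genes). The heat map by library shows these blocks, with rows that are red in all 6 siRNA libraries beside rows that are blue in all 6. The patterns in 1 comparison alone depended on the processing. With the GC trend removed, DNAJB11, DNAJC3, EDEM1, DERL1, DERL2 and SEC61B of the 7 lost their call, and SEC24D was lower in the second comparison. Of the 5, HSPA5, PDIA3 and KDELR3 were then lower in the first comparison too, and SDF2L1 lost its call in the second. Library-size scaling ended the second-comparison calls of HSPA5, PDIA3, SEC61A1 and KDELR3.

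**Figure D2:**
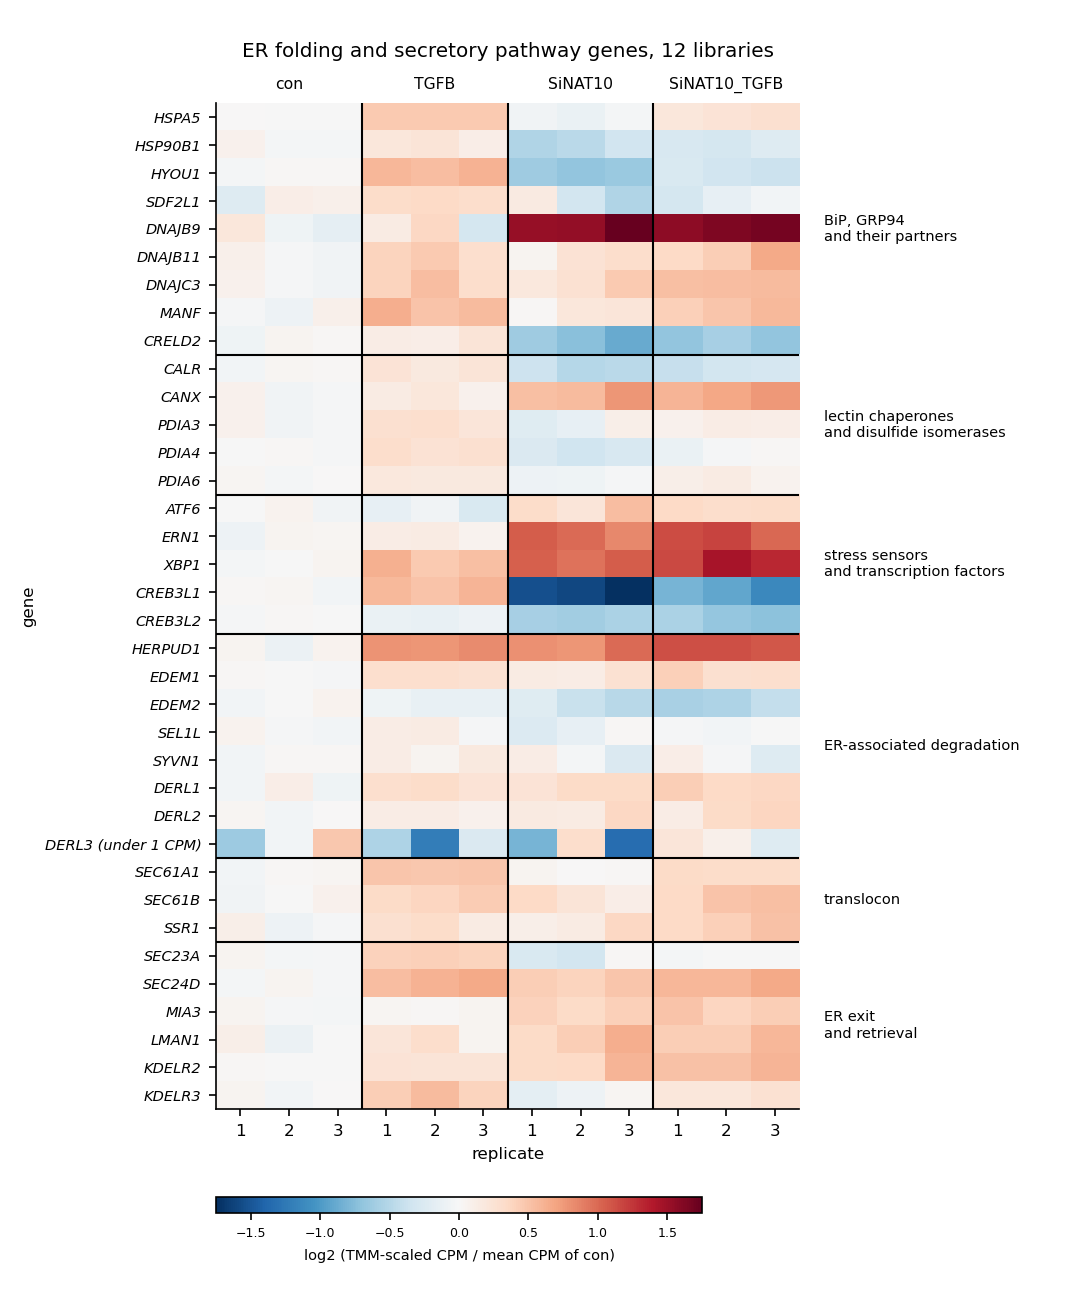
Level of each of the 36 genes in each library as log2 of TMM-scaled CPM over the mean of the con libraries (colour scale), by role (rows) and by group and replicate (columns). TGFB columns are mostly red. DNAJB9, XBP1, ERN1 and HERPUD1 are red and CREB3L1, CRELD2 and HYOU1 blue in the SiNAT10 columns, and DERL3, under 1 CPM, scatters.

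Among BiP, GRP94 and their 7 partners, TGF-β1 raised 6 of 9 genes without siRNA and the same 6 after it. After siRNA the calls of HSPA5, HYOU1 and MANF held in every fit that left out a library. Those of HSP90B1, DNAJB11 and DNAJC3 were each lost without SiNAT10 replicate 1 (adjusted p = 0.142, 0.136 and 0.131), SiNAT10 replicate 2 (0.157, 0.059 and 0.133), SiNAT10_TGFB replicate 2 (0.0666, 0.0516 and 0.0942) or SiNAT10_TGFB replicate 3 (0.145, 0.227 and 0.0861). HSP90B1 and DNAJC3 also lost theirs without SiNAT10_TGFB replicate 1 (0.0697 and 0.0671), and HSP90B1 without con replicate 2 (0.053), con replicate 3 (0.0562) or TGFB replicate 1 (0.0571). Scaling by library size alone ended these calls of HSP90B1, DNAJB11 and DNAJC3 as well. BiP, the most general ER chaperone (HSPA5, ENSG00000044574, chr9:125234853-125241330 on hg38), stood at 1081, 1073 and 1067 CPM in con and at 1478, 1475 and 1479.9 in TGFB. Its levels were 1030.0, 987 and 1052 CPM in SiNAT10 and 1229, 1263 and 1299.7 in SiNAT10_TGFB. Each TGF-β1 group thus lay clear above its partner group, and BiP under TGF-β1 was lower with siRNA than without. The log2 change of HSPA5 with TGF-β1 was 0.46 ± 0.04 (SE; adjusted p = 3e-08) without siRNA and 0.31 ± 0.04 (adjusted p = 3.04e-05) after it, a difference of -0.16 ± 0.06 that did not pass the test (adjusted p = 0.217). With siRNA it was -0.07 ± 0.04 (adjusted p = 0.2) without TGF-β1 and -0.23 ± 0.04 (adjusted p = 0.00018) under it. That last value was -0.10 (adjusted p = 0.0651) with library size as the only scaling.

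HYOU1 (ENSG00000149428, chr11:119044189-119057202), an Hsp70-like ATPase that acts as nucleotide exchange factor for BiP, changed in all 4 comparisons. It measured 365, 378 and 379 CPM in con and 560.0, 545 and 569 in TGFB. The siRNA libraries had 244, 231 and 239 CPM in SiNAT10 and 312, 296 and 287 in SiNAT10_TGFB. No 2 groups overlapped, and every siRNA library lay below every library without siRNA. TGF-β1 raised HYOU1 by 0.58 ± 0.05 on the log2 scale (adjusted p = 6.92e-09) without siRNA and by 0.33 ± 0.05 (adjusted p = 8.55e-05) after it, and the siRNA changed it by -0.65 ± 0.05 (adjusted p = 3.62e-10) and, under TGF-β1, by -0.90 ± 0.05 (adjusted p = 1.12e-12). The difference between the 2 effects of TGF-β1 was -0.25 ± 0.07 (adjusted p = 0.0569). It passed the threshold with some other settings, among them DESeq2 (-0.25, adjusted p = 0.0129) and the fits without SiNAT10 replicate 3 (-0.25, adjusted p = 0.0489) or without SiNAT10_TGFB replicate 1 (-0.28, adjusted p = 0.033).

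DNAJB9 (ERdj4, ENSG00000128590, chr7:108569568-108574850), a J-domain co-chaperone of BiP, had the largest rise with siRNA among the 36. Its levels were 10.8, 8.93 and 8.40 CPM in con, 10.3, 12.02 and 7.59 in TGFB, 27.0, 27.3 and 33.3 in SiNAT10 and 27.7, 28.99 and 29.8 in SiNAT10_TGFB. Every siRNA library was above every other library, while con and TGFB overlapped. The siRNA effect was 1.64 ± 0.13 (adjusted p = 4.92e-10) without TGF-β1 and 1.53 ± 0.13 (adjusted p = 1.37e-09) under it, or 3.11-fold and 2.88-fold. TGF-β1 gave 0.09 ± 0.14 (adjusted p = 0.691) and -0.02 ± 0.12 (adjusted p = 0.962).

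GRP94 (HSP90B1), the ER form of Hsp90, and CRELD2, an ER protein induced by stress, went the other way with siRNA. HSP90B1 fell by 0.44 ± 0.05 on the log2 scale (adjusted p = 3.21e-07) without TGF-β1 and by 0.45 ± 0.05 (adjusted p = 2.35e-07) under it. CRELD2 had 71.7, 78.1 and 77.0 CPM in con and 48.9, 45.5 and 41.2 in SiNAT10, a change of -0.74 ± 0.07 (adjusted p = 1.08e-08), and under TGF-β1 the change was -0.81 ± 0.07 (adjusted p = 2.08e-09). Its TGF-β1 effects of 0.16 and 0.08 were not called. TGF-β1 raised HSP90B1 by 0.18 ± 0.05 (adjusted p = 0.0168), and that call was lost without con replicate 2 (0.16, adjusted p = 0.0793), con replicate 3 (0.16, adjusted p = 0.085), TGFB replicate 1 (0.16, adjusted p = 0.0783) or TGFB replicate 2 (0.15, adjusted p = 0.0971). Library-size scaling took it to 0.04 (adjusted p = 0.591).

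Of the remaining partners, 3 rose with TGF-β1 and 1, SDF2L1, did not pass that test. MANF, a secreted stress-induced factor that binds BiP, rose by 0.57 ± 0.07 with TGF-β1 (adjusted p = 1.71e-06) and by 0.35 ± 0.07 after siRNA (adjusted p = 0.0016), and neither siRNA comparison called it (0.15, adjusted p = 0.0902, and -0.07, adjusted p = 0.424), although the first passed without SiNAT10 replicate 1 (0.20, adjusted p = 0.0237). Both J-domain co-chaperones DNAJC3 and DNAJB11 rose with TGF-β1 without siRNA (0.42 ± 0.07, adjusted p = 0.000116, and 0.38 ± 0.08, adjusted p = 0.00137). DNAJC3 rose with siRNA in the absence of TGF-β1 (0.30 ± 0.07, adjusted p = 0.00129), a value that became 0.11 (adjusted p = 0.0567) once each library's trend with GC content was removed. SDF2L1, a partner of BiP and ERdj3, had the widest scatter of the group. Its SiNAT10 libraries stood at 51.3, 36.8 and 32.0 CPM, across the con libraries at 39.5, 49.8 and 48.8. It was at 0.33 (adjusted p = 0.0503) and 0.04 with TGF-β1 and was called lower with siRNA under TGF-β1 (-0.49, adjusted p = 0.00157), a value that turned to 0.06 with the GC trend removed.

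Of the 5 lectin chaperones and disulfide isomerases, calnexin and calreticulin moved apart with the siRNA although they share substrates. Calnexin (CANX, ENSG00000127022, chr5:179678628-179730925), the membrane-bound lectin chaperone, had 1045, 956 and 980 CPM in con and 1431, 1453 and 1695 in SiNAT10. Calreticulin (CALR, ENSG00000179218, chr19:12938578-12944489), its soluble counterpart, had 1114, 1180 and 1167 CPM in con and 895, 813 and 832 in SiNAT10. The SiNAT10 libraries were all above con for CANX and all below con for CALR. With siRNA, CANX rose by 0.62 ± 0.06 (adjusted p = 1.26e-08) and under TGF-β1 by 0.54 ± 0.06 (adjusted p = 9.51e-08), whereas CALR changed by -0.45 ± 0.05 (adjusted p = 9.9e-08) and -0.55 ± 0.05 (adjusted p = 3.14e-09). Both genes have an ERSE in the promoter. TGF-β1 raised CALR by 0.21 ± 0.05 (adjusted p = 0.00266; 0.08, adjusted p = 0.215, with library-size scaling), and CANX was at 0.14 ± 0.06 (adjusted p = 0.11; called without SiNAT10 replicate 3, 0.14, adjusted p = 0.0385).

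The disulfide isomerases PDIA3, PDIA4 and PDIA6, which form and rearrange disulfide bonds, all rose with TGF-β1 in cells without siRNA. PDIA4 changed in all 4 comparisons. It stood at 436, 443 and 429 CPM in con, 539, 522 and 528 in TGFB, 366, 343 and 359 in SiNAT10 and 404, 432 and 443 in SiNAT10_TGFB. It rose with TGF-β1 by 0.28 ± 0.05 (adjusted p = 0.000226) and by 0.26 ± 0.05 after siRNA (adjusted p = 0.00114), and changed with siRNA by -0.29 ± 0.05 (adjusted p = 4.85e-05) and -0.31 ± 0.05 (adjusted p = 1.87e-05). PDIA3 rose by 0.27 ± 0.06 (adjusted p = 0.00334; 0.13, adjusted p = 0.136, with library-size scaling). PDIA6 rose by 0.18 ± 0.05 (adjusted p = 0.0129), a call that ended with library-size scaling (0.04, adjusted p = 0.579) or without con replicate 2 (adjusted p = 0.0704), TGFB replicate 1 (0.0586) or TGFB replicate 3 (0.0518). Both genes overlap others on the opposite strand (18.9% and 25.2% of their exon bases), and no label or header says whether the counting used strand.

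The 5 stress sensors and transcription factors moved in opposite directions with siRNA, 3 upward and 2 downward in both siRNA comparisons. ERN1 (IRE1, ENSG00000178607, chr17:64039142-64130819), the kinase and endoribonuclease that splices XBP1 mRNA, had 33.9, 37.5 and 36.9 CPM in con, 39.5, 39.9 and 37.5 in TGFB, 75.5, 72.1 and 64.7 in SiNAT10 and 79.9, 81.9 and 72.2 in SiNAT10_TGFB. XBP1 (ENSG00000100219, chr22:28794555-28800597), the transcription factor made from that spliced mRNA, had 38.2, 39.1 and 40.4 CPM in con, 60.1, 53.8 and 56.4 in TGFB, 80.7, 75.6 and 81.5 in SiNAT10 and 87.4, 106 and 98.2 in SiNAT10_TGFB. For both genes every siRNA library exceeded every other library, but only for XBP1 did the TGFB libraries also stand clear above con by a margin that passed the test. ERN1 rose with siRNA by 0.97 ± 0.08 (adjusted p = 2.53e-10) and, under TGF-β1, by 1.00 ± 0.08 (adjusted p = 1.26e-10). XBP1 rose with siRNA by 1.02 ± 0.08 (adjusted p = 9.56e-11) and 0.78 ± 0.07 (adjusted p = 5.65e-09), and with TGF-β1 by 0.53 ± 0.08 (adjusted p = 7.71e-06) and, after siRNA, 0.30 ± 0.07 (adjusted p = 0.00791). The last of these calls was lost without SiNAT10 replicate 2 (0.26, adjusted p = 0.0598) or without SiNAT10_TGFB replicate 2 (0.23, adjusted p = 0.0849). Gene counts do not separate spliced from unspliced XBP1 mRNA.

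CREB3L1 (OASIS, ENSG00000157613, chr11:46277661-46321422), a membrane-bound transcription factor known for driving collagen and secretory genes, had the largest fall with siRNA among the 36. Its levels were 170, 172 and 163 CPM in con, 250.1, 238 and 254 in TGFB, 58.0, 56.0 and 49.2 in SiNAT10 and 95.8, 89.4 and 77.0 in SiNAT10_TGFB. The 4 groups did not overlap. The siRNA lowered it by -1.63 ± 0.08 (adjusted p = 3.76e-14), to 0.323 of the con level, and by -1.50 ± 0.07 under TGF-β1 (adjusted p = 7.87e-14). With the GC trend removed the values were -1.18 and -1.07. TGF-β1 raised it by 0.55 ± 0.07 (adjusted p = 2.52e-06) and, after siRNA, by 0.68 ± 0.08 (adjusted p = 4.83e-07). Its paralogue CREB3L2, which drives COPII genes such as SEC23A in cartilage, changed with siRNA by -0.58 ± 0.06 (adjusted p = 7.24e-09) and -0.54 ± 0.06 (adjusted p = 2.56e-08). With TGF-β1 CREB3L2 was at -0.11 ± 0.06, which was not called, but was called with the GC trend removed (-0.12, adjusted p = 0.0435). ATF6, the sensor cleaved in the Golgi, rose with siRNA by 0.36 ± 0.08 (adjusted p = 0.00047) and 0.48 ± 0.08 (adjusted p = 1.84e-05) and was at -0.15 ± 0.08 (adjusted p = 0.175) with TGF-β1.

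The levels by library of 9 of these genes show patterns that differ in kind. HSPA5 was high where TGF-β1 was given. DNAJB9 and ERN1 were high where siRNA was given, CREB3L1 was raised by TGF-β1 and lowered by siRNA, and HERPUD1 was high with either.

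**Figure D3:**
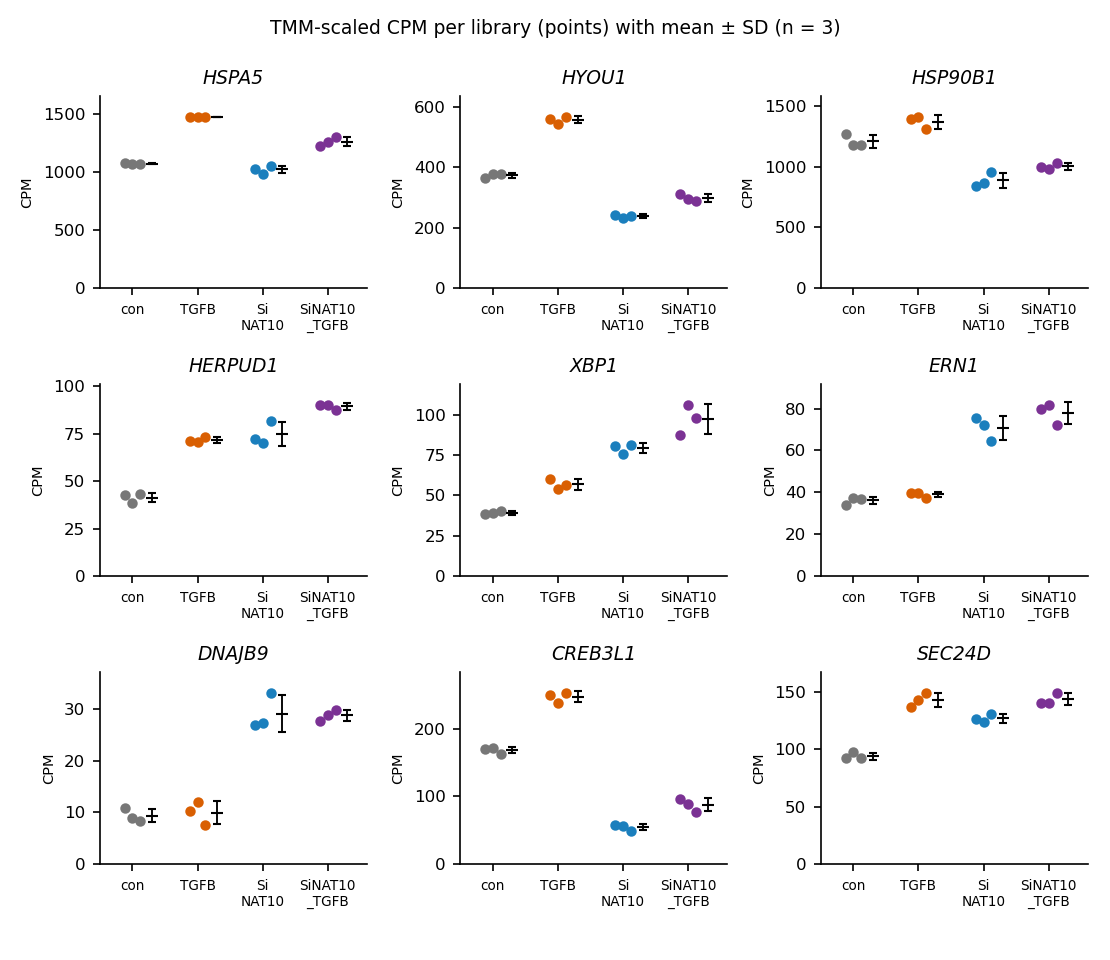
TMM-scaled CPM (y axis, from 0) of 9 genes in each library (points) by group, with the mean and SD of 3 libraries (bar). The siRNA libraries of DNAJB9, XBP1 and ERN1 lie above all others, those of CREB3L1 and HYOU1 below all others, and the con libraries of HERPUD1 and SEC24D below all others.

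HERPUD1 (ENSG00000051108, chr16:56932048-56944863) codes for a ubiquitin-like membrane protein of the ERAD complex and is a sensitive target of the unfolded protein response. Of the 8 ERAD genes among the 36, it had the largest rise with TGF-β1 in cells without siRNA. It stood at 42.6, 38.3 and 43.0 CPM in con, 71.3, 70.6 and 73.3 in TGFB, 72.1, 70.2 and 81.8 in SiNAT10 and 90.3, 90.2 and 87.4 in SiNAT10_TGFB. All libraries with either treatment were above con, and TGFB and SiNAT10 overlapped each other. TGF-β1 raised it by 0.80 ± 0.07 (adjusted p = 6.52e-09) without siRNA, or 1.74-fold, and by 0.26 ± 0.07 (adjusted p = 0.0156) after it, or 1.20-fold. The difference, -0.54 ± 0.10, passed the test (adjusted p = 0.00177). The smaller value was not called without SiNAT10 replicate 2 (0.22, adjusted p = 0.11), SiNAT10_TGFB replicate 1 (0.25, adjusted p = 0.0524) or SiNAT10_TGFB replicate 2 (0.25, adjusted p = 0.0599). Nor was it called with library size as the only scaling. With siRNA, HERPUD1 rose by 0.85 ± 0.07 (adjusted p = 6.99e-10) and, under TGF-β1, by 0.32 ± 0.07 (adjusted p = 0.000499).

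Of the other 7 ERAD genes, 2 rose with TGF-β1 without siRNA. EDEM1, which passes misfolded glycoproteins to degradation, and DERL1, a channel component, rose with TGF-β1 without siRNA (0.28 ± 0.06, adjusted p = 0.00091, and 0.29 ± 0.07, adjusted p = 0.00249). With library-size scaling these were 0.15 (adjusted p = 0.0659) and 0.16 (adjusted p = 0.0888). EDEM2, the mannosidase that starts glycan trimming for ERAD, had 32.9, 33.7 and 35.5 CPM in con and 29.5, 26.1 and 24.2 in SiNAT10, a change of -0.35 ± 0.08 (adjusted p = 0.00122), with -0.39 ± 0.09 under TGF-β1 (adjusted p = 0.000507). The adaptor SEL1L and the ubiquitin ligase SYVN1, which form the core of the retrotranslocation complex, passed the test in 0 of the 4 comparisons. Their values lay between -0.12 and 0.09 for SEL1L and between -0.15 and 0.12 for SYVN1. With the GC trend removed, SEL1L passed in all 4: 0.13 (adjusted p = 0.0161) and 0.14 (adjusted p = 0.0203) with TGF-β1, and -0.32 (adjusted p = 2.65e-07) and -0.31 (adjusted p = 3.92e-07) with siRNA. SYVN1 then passed for SiNAT10 against con (0.16, adjusted p = 0.0318). DERL3 had only 8 to 32 counts a library, 77% of its exon bases overlap SMARCB1 on the opposite strand, and its values are uncertain.

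All 3 translocon genes rose with TGF-β1 without siRNA. SEC61A1, the channel subunit, had 306, 321 and 325 CPM in con and 447, 440.5 and 443 in TGFB, then 328, 318 and 321 in SiNAT10 and 399, 396 and 398 in SiNAT10_TGFB. Its con and SiNAT10 libraries overlapped, and the TGFB libraries exceeded the SiNAT10_TGFB libraries. The TGF-β1 effect was 0.48 ± 0.05 (adjusted p = 6.34e-08) and, after siRNA, 0.30 ± 0.05 (adjusted p = 0.000115). SEC61B, the small subunit, rose by 0.39 ± 0.07 (adjusted p = 0.000184). SSR1, a subunit of the translocon-associated protein complex, rose by 0.25 ± 0.07 (adjusted p = 0.0133), which was lost with library-size scaling (0.11, adjusted p = 0.253) or without con replicate 2 (0.21, adjusted p = 0.0825), con replicate 3 (0.24, adjusted p = 0.0535), TGFB replicate 1 (0.23, adjusted p = 0.0629) or TGFB replicate 2 (0.21, adjusted p = 0.0842).

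Among the 6 genes of ER exit and retrieval, SEC24D (ENSG00000150961, chr4:118722823-118838683), a cargo-binding subunit of the COPII coat needed for procollagen export, had the largest rise with TGF-β1 in cells without siRNA. Its levels were 92.3, 97.6 and 92.5 CPM in con, 138, 143 and 149 in TGFB, 127, 124 and 131 in SiNAT10 and 141, 141 and 150 in SiNAT10_TGFB. TGFB and SiNAT10_TGFB overlapped, and con lay below the other groups. TGF-β1 raised it by 0.61 ± 0.06 (adjusted p = 2.73e-08) without siRNA, and after siRNA the value was 0.18 ± 0.06 (adjusted p = 0.0557; called without SiNAT10 replicate 3, 0.20, adjusted p = 0.0342). The difference of -0.43 ± 0.08 passed the test (adjusted p = 0.00261). With siRNA, SEC24D rose by 0.43 ± 0.06 (adjusted p = 1.43e-06) and was at 0.01 ± 0.06 (adjusted p = 0.945) under TGF-β1.

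SEC23A, the GTPase-activating subunit of the same inner coat, rose with TGF-β1 by 0.40 ± 0.07 (adjusted p = 8.25e-05) but fell with siRNA under TGF-β1 by 0.42 ± 0.07 (adjusted p = 1.74e-05). Its value without TGF-β1, -0.18 ± 0.07 (adjusted p = 0.0299), was not called without con replicate 1 (-0.16, adjusted p = 0.0929), con replicate 3 (-0.19, adjusted p = 0.0519), SiNAT10 replicate 1 (-0.14, adjusted p = 0.101) or SiNAT10 replicate 2 (-0.12, adjusted p = 0.192). MIA3 (TANGO1), which loads procollagen into COPII carriers, had 54.9, 52.5 and 51.8 CPM in con, 54.2, 54.0 and 54.9 in TGFB, and 69.9, 66.8 and 70.7 in SiNAT10. Only the siRNA libraries stood apart for MIA3. It rose with siRNA by 0.38 ± 0.06 (adjusted p = 2.62e-05) and 0.40 ± 0.06 (adjusted p = 1.44e-05), and with TGF-β1 was at 0.03 and 0.05.

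The cargo receptor LMAN1 (ERGIC-53) rose with siRNA by 0.47 ± 0.08 (adjusted p = 1.98e-05) and, under TGF-β1, by 0.29 ± 0.08 (adjusted p = 0.00328), of which the second was 0.09 (adjusted p = 0.113) with the GC trend removed. The receptors KDELR2 and KDELR3, which return escaped chaperones to the ER, differed from each other. KDELR2 rose with siRNA (0.43 ± 0.06, adjusted p = 4.18e-06, and 0.31 ± 0.06, adjusted p = 0.000189) and KDELR3 was at -0.08 ± 0.08 (adjusted p = 0.441) and -0.24 ± 0.08 (adjusted p = 0.0129). That fall in KDELR3 was lost without TGFB replicate 2 (-0.19, adjusted p = 0.0787) and with library-size scaling (-0.11, adjusted p = 0.262). TGF-β1 without siRNA raised both, by 0.23 ± 0.06 (adjusted p = 0.00763; 0.10, adjusted p = 0.252, with library-size scaling) for KDELR2 and by 0.46 ± 0.08 (adjusted p = 8.14e-05) for KDELR3.

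The difference between the effect of TGF-β1 with siRNA and without it was negative for 29 of the 36 genes, and for all 9 of BiP, GRP94 and their partners. Over all genes tested, 50.6% of the values were above 0, and the median was 0.00 beside -0.11 for the 36. The test passed for 2 of the 36, HERPUD1 and SEC24D, both downward (1.91% of all genes), and for 0 upward (1.94%, with 3.85% in either direction). At an unadjusted p under 0.05, edgeR gave 9 downward (HYOU1, SEC61A1, HSPA5, SEC23A, XBP1, DERL1 and MANF beside the 2) and 0 upward. The share of all genes at that unadjusted threshold was not counted. DESeq2 and voom each called 3 of the 36 downward and 0 upward. Of all 18560 genes, DESeq2 called 486 downward and 521 upward, and voom 331 and 332. The 4 comparisons behind these differences share libraries in pairs, so the values are set side by side in the plot of effects and not correlated.

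**Figure D4:**
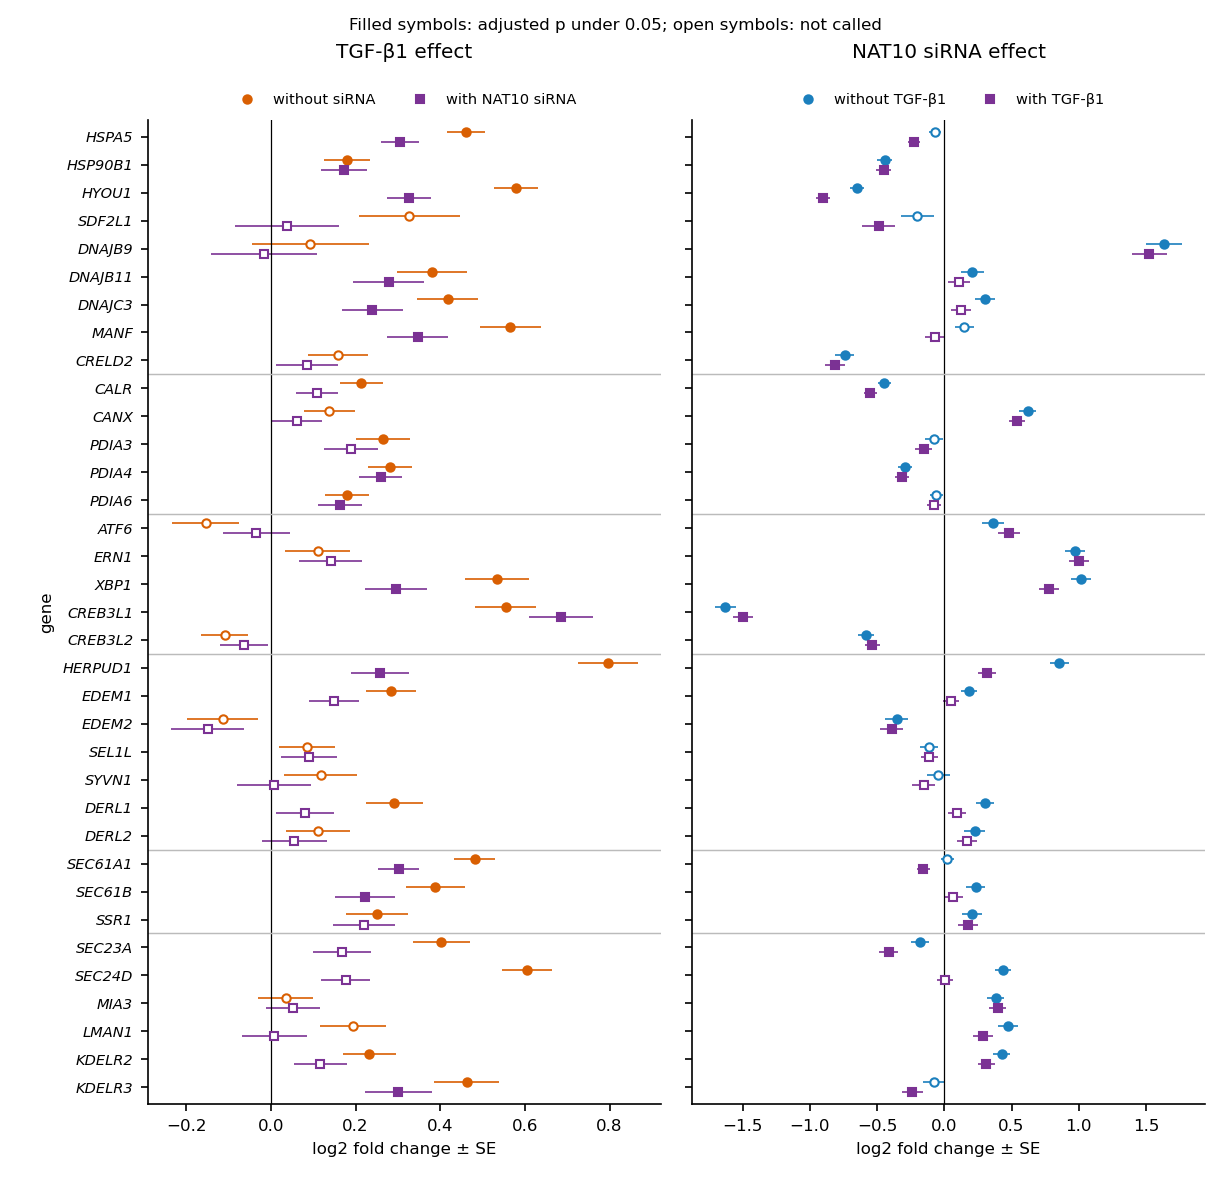
Log2 fold change ± SE (x axis) of 35 genes (DERL3 left out for its low counts). Left, TGF-β1 without siRNA (circles) and after siRNA (squares). Right, siRNA without TGF-β1 (circles) and under it (squares). Filled symbols passed an adjusted p under 0.05. The squares lie left of the circles for most genes in the left panel, most of all for HERPUD1 and SEC24D.

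How firm the counts were differed by comparison. Leaving out 1 library at a time gave 19 to 25 genes higher with TGF-β1 without siRNA, beside 1728 to 2469 of all genes tested. The 14 higher with TGF-β1 after siRNA ranged from 6 to 19, beside 864 to 1142 of all genes. That count dropped most without SiNAT10 replicate 2 (6), SiNAT10_TGFB replicate 2 (7), SiNAT10_TGFB replicate 3 (8) or SiNAT10 replicate 1 (9). Of those 14, HSPA5, PDIA4, HYOU1, MANF, SEC61A1 and CREB3L1 kept the call in every such fit and under every other setting. Scaling by library size alone shifted the median of all genes by -0.14 for TGFB against con and turned the split of all calls there from 49.5% higher to 23.4% higher. It left 14 of the 22 genes called higher, and put 3 others (ATF6, EDEM2 and CREB3L2) among the genes called lower. For the other comparisons the share of calls that were higher went from 49.6 to 61.3% (SiNAT10_TGFB against TGFB), from 53.5 to 36.7% (SiNAT10_TGFB against SiNAT10) and from 50.4 to 68.9% (the difference of effects).

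Transcript GC content moved with the siRNA effect. Across the 36 genes Spearman's rho between GC content of the longest transcript and the log2 change was -0.49 for SiNAT10 against con and -0.46 for SiNAT10_TGFB against TGFB. Over the 18552 genes with a GC value it was -0.29 and -0.28, and for TGFB against con it was 0.12 for the 36 and 0.07 for all. These are descriptions across genes of the same libraries, and what part GC content has in the result was not tested beyond the removal that follows. Removing each library's GC trend left the 9 falls of SiNAT10 against con in place and added HSPA5 (-0.24, adjusted p = 3.9e-06), PDIA3 (-0.25), PDIA6 (-0.22), SEL1L (-0.32) and KDELR3 (-0.24). It ended 7 of the 17 rises: DNAJB11 (-0.02), DNAJC3 (0.11), EDEM1 (0.02), DERL1 (0.14), DERL2 (0.02), SEC61B (0.08) and SSR1 (0.02).

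Of the 10 genes higher in both siRNA comparisons, CANX, DNAJB9, HERPUD1, XBP1, ATF6, ERN1, KDELR2 and MIA3 passed the test in both under each alternative run. Of the 9 lower in both, HSP90B1, CALR, PDIA4, HYOU1, CRELD2, EDEM2, CREB3L1 and CREB3L2 did so. Several called values of SiNAT10 against con nevertheless moved by more than 1.5 times with the GC trend removed: ATF6 from 0.36 to 0.18, SEC24D from 0.43 to 0.27, KDELR2 from 0.43 to 0.26, MIA3 from 0.38 to 0.20, LMAN1 from 0.47 to 0.27 and SEC23A from -0.18 to -0.42. For SiNAT10_TGFB against TGFB these were CANX (0.54 to 0.35), HERPUD1 (0.32 to 0.17), ATF6 (0.48 to 0.29), KDELR2 (0.31 to 0.14), MIA3 (0.40 to 0.20), HSPA5 (-0.23 to -0.38), PDIA3 (-0.15 to -0.33) and KDELR3 (-0.24 to -0.40). SDF2L1, the gene richest in GC of the 36 (65.5%), turned from -0.20 to 0.32 (SiNAT10 against con) and from -0.49 to 0.06 (SiNAT10_TGFB against TGFB) with the GC trend removed, so no direction is given for it.

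**Figure D5:**
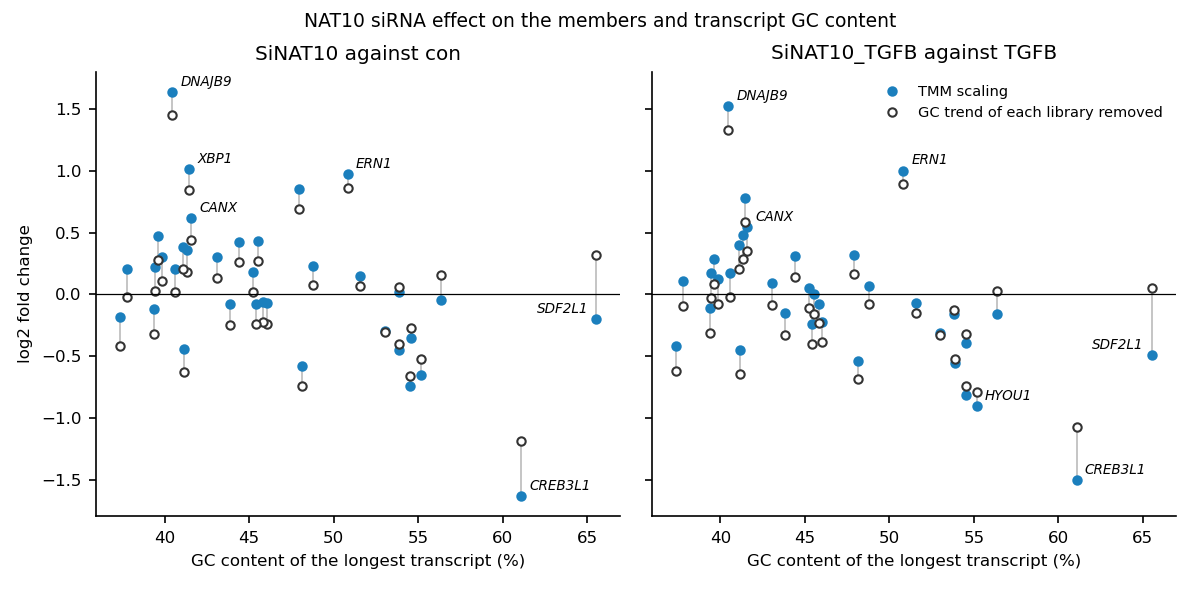
Log2 fold change with siRNA (y axis) against GC content of the longest transcript (x axis, %) for 35 genes, with TMM scaling (filled) and with each library's GC trend removed (open), joined per gene. DNAJB9, XBP1 and ERN1 stay high and CREB3L1 stays low under both, whereas SDF2L1 crosses 0.

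With siRNA, genes with an ERSE or ERSE-II in the promoter went both ways, as did all genes tested (26.4% higher and 26.4% lower). TGF-β1 without siRNA raised 7 of these 10 genes (median 0.27) and 11 of the 21 whose promoter had neither (median 0.25). It raised 11.9% of all genes. With siRNA, 3 of the 10 rose (CANX, HERPUD1 and XBP1) and 4 fell (HSP90B1, CALR, HYOU1 and CRELD2), median -0.14, beside 11 and 5 of the 21, median 0.18. Under TGF-β1 the counts with siRNA were 3 higher and 6 lower of the 10 (median -0.34) and 6 and 7 of the 21 (median 0.05). Of all genes, 26.3% were then higher and 26.8% lower. HSP90B1, with 2 ERSE, and XBP1, with 1 ERSE, printed above, thus moved in opposite directions, and so did HYOU1 and HERPUD1, which both have ERSE-II.

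Per unit of gene length, 6 chaperones and isomerases had the highest levels of the 36 in con. CALR had 424 ± 13 FPKM, HSPA5 274 ± 2, HSP90B1 257 ± 12, CANX 159 ± 7, PDIA4 133 ± 2 and PDIA3 129 ± 6 (SD, n = 3). The libraries of PDIA4 and PDIA3 overlapped, and the lowest for HSPA5 (272 FPKM) was just above the highest for HSP90B1 (271 FPKM). At the low end stood ATF6 (7.26 ± 0.32), MIA3 (5.20 ± 0.16), ERN1 (3.31 ± 0.17), DNAJB9 (3.29 ± 0.44) and DERL3 (0.189 ± 0.070), and the libraries of ERN1 and DNAJB9 overlapped. In SiNAT10 the FPKM of DNAJB9 reached 10.3 and that of ERN1 6.51, while CREB3L1 went from 41.6 to 13.5.

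The same pathways held many genes outside the 36, and their counts stand beside 11.9% of all genes higher and 12.2% lower with TGF-β1 without siRNA, 26.4% each way with siRNA, and 26.3 and 26.8% with siRNA under TGF-β1. Among 40 other ER chaperones and folding enzymes, TGF-β1 without siRNA raised 8 and lowered 3, with the prolyl isomerases FKBP11 (0.59 ± 0.08, adjusted p = 6.01e-06) and FKBP14 (0.75 ± 0.11, adjusted p = 2.08e-05) first. With siRNA 13 rose and 11 fell, near the shares of all genes, and the isomerase FKBP9 changed by -1.83 ± 0.07 (adjusted p = 2.44e-15) and, under TGF-β1, -1.99 ± 0.07 (adjusted p = 4.15e-16). FKBP11 fell with siRNA as well (-0.77 and -1.07). Of 26 other ERAD genes tested, 5 rose and 5 fell with TGF-β1, and 12 rose and 5 fell with siRNA. The lectin OS9, which selects misfolded glycoproteins, changed with siRNA by -1.32 ± 0.06 (adjusted p = 1.19e-14), and ERLIN2 by -1.44 ± 0.07 (adjusted p = 8.89e-14). UBE2J1, the ubiquitin-conjugating enzyme of ERAD, rose with TGF-β1 by 0.90 ± 0.06 (adjusted p = 3.44e-11) and less after siRNA (0.28 ± 0.06), a difference of -0.61 ± 0.08 (adjusted p = 5.14e-05).

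Among 15 other regulators of the unfolded protein response tested, including the PERK arm, 8 rose and 3 fell with siRNA. PPP1R15A (GADD34), which directs dephosphorylation of eIF2α, rose by 1.48 ± 0.06 (adjusted p = 4.5e-15) and, under TGF-β1, by 2.08 ± 0.06 (adjusted p = 1.76e-17), and the transcription factor ATF3 by 1.57 ± 0.08 (adjusted p = 6.92e-14) and 1.62 ± 0.07 (adjusted p = 2.51e-14). ATF6B, the paralogue of ATF6, fell (-1.08 ± 0.08, adjusted p = 2.29e-10, and -1.11 ± 0.08, adjusted p = 1.43e-10) where ATF6 rose. The most uniform list was that of translocation, signal peptidase and oligosaccharyltransferase. Of its 33 genes, 27 rose and 3 fell with siRNA (median 0.42), and 25 rose and 3 fell under TGF-β1 (median 0.36). These counts, like those of the other lists, were taken without removal of the GC trend, and their dependence on it was not tested. Among the translocon genes described above, GC removal took SEC61B from 0.23 to 0.08 and SSR1 from 0.21 to 0.02 (SiNAT10 against con). Both calls ended, and SEC61A1 was called in neither fit (0.02 and 0.06). SRP14, a signal recognition particle protein, rose by 0.74 ± 0.06 (adjusted p = 8.31e-10), and DAD1, an oligosaccharyltransferase subunit, by 0.71 ± 0.07 (adjusted p = 4.48e-09). TRAM2, which aids translocation of type I collagen, fell by 0.62 ± 0.05 (adjusted p = 9.12e-10) and, under TGF-β1, by 0.91 ± 0.05 (adjusted p = 1e-12). The coat lists behaved less uniformly. Of 33 other COPII and ER exit genes, 18 rose and 5 fell with siRNA, the outer coat protein SEC31A among the latter (-0.44 ± 0.05, adjusted p = 3.19e-07). Of 18 COPI genes, 10 rose and 4 fell, and 10 rose and 1 fell with TGF-β1. ARFGAP1, a COPI regulator, rose with TGF-β1 (0.84 ± 0.07, adjusted p = 1.07e-09) and fell with siRNA (-0.80 ± 0.07, adjusted p = 1.03e-09; -0.31 with the GC trend removed).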

How the data were processed

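Gene counts and FPKM for 12 RNA-seq libraries of LX-2 cells were analysed. Per the submitters' processing notes, the authors used fastp and HISAT2 2.2.1 with hg38. No source names the counter, its annotation or its strand setting. All 58735 gene identifiers had the start and end of GENCODE release 29. Levels between genes were read from FPKM, which the authors deposited beside the counts and which follow from counts and lengths up to 1 factor per library. Deposited counts were tested with edgeR 4.0.16 in R 4.3.3: filterByExpr (minimum count 10; 18560 genes kept), TMM scaling, a quasi-likelihood fit of 4 group means to all 12 libraries, 4 contrasts and the interaction, and Benjamini-Hochberg adjustment over all genes, with calls at an adjusted p under 0.05. The SE is the absolute log2 fold change divided by the square root of F. A floor of 3 counts was 0.0854 to 0.116 CPM by library, for counting error only.

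The 36 genes and all lists were chosen with earlier results of these data known. All 36 were named; from each other pathway list, up to 2 called genes of smallest p per direction and comparison. Replicate numbers did not pair the libraries (18 correlations of same-numbered deviations, -0.073 to 0.048). Alternatives were library-size, DESeq2 (1.42.0) and upper-quartile scaling, no filter, DESeq2, voom (limma 3.58.1), fits of only the groups compared, a replicate block, removal of each library's GC trend, an adjusted p under 0.01, and omission of each library. On simulated counts (TGFB against con), the test called 10% of 50 genes given a log2 change of 0.25, 60% at 0.5, 78% at 1 and 98% at 2, and wrongly called 8 of 17814. The interaction called 6, 38, 74 and 88%, and wrongly 6 of 17815. Protein sequences were not used here.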

Additional observations from a re-analysis of the deposited data

Results flagged for a closer look

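HERPUD1 and SEC24D differed in their response to TGF-β1 between cells with and without NAT10 siRNA by the interaction test. The effect of TGF-β1 after siRNA minus that without it was -0.54 ± 0.10 (SE; adjusted p = 0.00177, edgeR) for HERPUD1 and -0.43 ± 0.08 (adjusted p = 0.00261) for SEC24D. Both genes were already higher in SiNAT10 than in con, by 0.85 and 0.43 on the log2 scale, and in all 3 libraries. With the 3 libraries of each group, HERPUD1 stood highest in SiNAT10_TGFB (89.3 ± 1.6 CPM, SD) and SEC24D had like means in TGFB (143 ± 6) and SiNAT10_TGFB (144 ± 5). Both interaction calls held in each of the 12 fits that left out 1 library and in each other alternative that gave one. As the labels give no harvest time for SiNAT10, TGF-β1 and time since transfection cannot be told apart in these differences.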

How the results depend on the processing

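With library size as the only scaling, 14 of the 36 were higher and 3 lower in TGFB against con, beside 1410 and 4623 of 18560 genes. In SiNAT10_TGFB against TGFB 17 were higher (6306 of all genes), and in SiNAT10_TGFB against SiNAT10 7 (876 of all). The last count was 9 with only the groups compared (880 of 17143 genes) and 7 at an adjusted p under 0.01 (762 of 18560). With the GC trend removed, 1 was lower in TGFB against con, beside 2847 of 18552 genes. Then 14 were lower in SiNAT10 against con (5368 of all genes) and 4 in the interaction (689 of all). With the replicate block too, 14 were lower in SiNAT10 against con (5271 of all). Without 1 library at a time, higher and lower counts are given with those of all genes (19228 to 19475 tested) in brackets. They were 19 to 25 and 0 to 0 in TGFB against con (1728 to 2469 and 1840 to 2539). In SiNAT10 against con they were 13 to 17 and 8 to 11 (4296 to 4892 and 4444 to 5003). In SiNAT10_TGFB against TGFB they were 9 to 11 and 12 to 14 (4409 to 5103 and 4509 to 5204). In SiNAT10_TGFB against SiNAT10 they were 6 to 19 and 0 to 0 (864 to 1142 and 692 to 1001). For the interaction they were 0 to 0 and 2 to 3 (245 to 464 and 268 to 506). Among values called with or without the alternative, the sign turned with GC removal, alone or with the replicate block, and under no other alternative run: for SiNAT10 against con, DNAJB11 (-0.0178 and -0.0188), SDF2L1 (0.32 and 0.32) and SYVN1 (0.16 and 0.16), and for SiNAT10_TGFB against TGFB, SDF2L1 (0.055 and 0.0535), SEC24D (-0.16 and -0.16), SSR1 (-0.0213 and -0.0215) and EDEM1 (-0.11, alone). The cause was not tested.

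The replicate block alone, for numbers that did not pair the libraries (a library correlated best with its own number in 4 of 18 cases), ended the calls of DNAJB11 (SiNAT10 against con, adjusted p = 0.0566), PDIA3 and SSR1 (SiNAT10_TGFB against TGFB, 0.0676 and 0.0685), and HSP90B1, PDIA6, DNAJC3 and SEC61B (SiNAT10_TGFB against SiNAT10, 0.0732, 0.087, 0.0592 and 0.0766). Changes of 0.25 on the log2 scale were mostly not called in simulated counts, where 17814 of 18014 genes were unchanged (TGFB against con). In the data 24.1% of all genes were called in that comparison, and the adjustment depends on how many genes change. The simulated share thus does not give the power for the genes described here. Of these, HSP90B1 and PDIA6 (0.18 each), CALR (0.21), KDELR2 (0.23) and SSR1 (0.25) were called there, whereas LMAN1 (0.19) and SDF2L1 (0.33) were not.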
